A study of Capra hircus with 3 samples.

Results

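The collagen genes described here are the 27 rows, among the 16739 genes of the expression table, whose symbol is COL followed by a type number, A and a chain number. They were grouped by structure into 8 fibrillar collagens, 4 basement membrane collagens, 3 fibril-associated collagens with interrupted triple helices (FACIT) and 12 other collagens. A list of 44 collagen genes was searched, and COL3A1, COL5A1, COL6A1, COL7A1, COL18A1 and the other listed genes with no row under their symbol are not analysed here. The cells were taken from the back skin of goat fetuses (Capra hircus) of the Northern Shaanxi White Cashmere breed on embryonic days 60, 90 and 120 (E60, E90 and E120), the stages that the study calls induction, organogenesis and cytodifferentiation of the hair follicle. Each stage was 1 library of 10x Genomics 3′ single-cell RNA sequencing, and the cells of at least 2 fetuses were pooled before barcoding. E60 and E90 were whole skin dissociated with collagenase IV and a pipette tip, whereas for E120 the follicles were first picked out of skin treated with collagenase, and TrypLE was then used to part their cells. Stage, fetus and library cannot be told apart in any comparison, and the tissue taken and its dissociation cannot be told apart from stage at E120. With 1 library per stage no test was possible, so levels are given side by side and no p-value is printed.

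Collagens are secreted or membrane proteins built of chains wound in threes into a triple helix. Fibrillar collagens assemble into the tensile fibrils of the dermis, in which type I is the bulk and types V and XI are minor chains that set fibril growth. FACIT collagens sit on the surface of those fibrils. Type IV forms the network of basement membranes under epithelia and around vessels, and type XV lies at the outer face of that network. Type VI forms beaded filaments between cells and fibrils, and type XVII is a transmembrane collagen of hemidesmosomes that ties basal keratinocytes to their basement membrane. In developing follicles a dermal condensate of mesenchymal cells becomes the papilla, which is enclosed by the epithelium it signals to.

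The libraries held 6849, 6931 and 6896 cells at E60, E90 and E120, with 65049552, 30277663 and 93403291 unique molecular identifiers (UMIs, each the tag of a captured transcript molecule) and medians of 8579, 3714 and 13064 UMIs per cell. Levels are UMIs summed over a class of cells and scaled to 1000000 UMIs of that class (CPM), each with an exact Poisson interval at 95% that covers counting error alone. Since a transcript gives a UMI at its 3′ end whatever its length, CPM carries no length term. Cells were clustered without the collagen genes, and clusters were named as "like" a class from marker genes. The dermal-like class had 5388, 506 and 215 cells at E60, E90 and E120, and the epithelial-like class had 1999 cells at E90 and 4414 at E120, with 3 at E60. Cells left unnamed numbered 854, 4043 and 1707 in the 3 libraries. The largest unnamed cluster of E90 was led mostly by mitochondrial genes. Mitochondrial genes took 11.1% of the UMIs of the median E90 cell, against 4.52% and 5.26% for E60 and E120. Pairs of libraries shared 9 to 13 cell barcodes.

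Collagen transcripts were abundant in the whole-skin libraries and scarce in the follicle library. They made up 0.450% of all UMIs at E60 (0.449% to 0.452%, exact binomial interval), 0.224% at E90 (0.222% to 0.226%) and 0.0170% at E120 (0.0168% to 0.0173%). Within dermal-like cells the 3 shares were 0.467%, 0.588% and 0.396%, so the libraries lay much closer together in that class than as wholes. In a sum over mixed cells, fewer cells of a type and less RNA per cell cannot be told apart. With every cell given the same weight the share at E120 was 0.0340%. The median depth there was 5503 UMIs in dermal-like and 15526.5 UMIs in epithelial-like cells.

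The mix of collagens differed by class as well. Fibrillar chains were 87.1%, 70.6% and 80.2% of collagen UMIs in dermal-like cells of E60, E90 and E120. Basement membrane chains were 56.1%, 53.4% and 91.1% of collagen UMIs in endothelial-like cells, and 72.2% in mural-like cells of E120 against 18.5% in mural-like cells of E60. Dermal marker genes summed to 2120, 2263 and 194 CPM in those endothelial-like cells, and to 12976 CPM at E60 and 1752 CPM at E120 in mural-like cells. Their part in these shares was not tested. In dermal-like cells of E90 the group of other collagens, which holds type VI, reached 12.5% of collagen UMIs, against 2.04% at E60 and 8.65% at E120. Epithelial-like cells of E120 summed to 32.3 CPM over all collagens, compared with 3960 CPM in dermal-like cells of the same library.

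**Figure D1:**
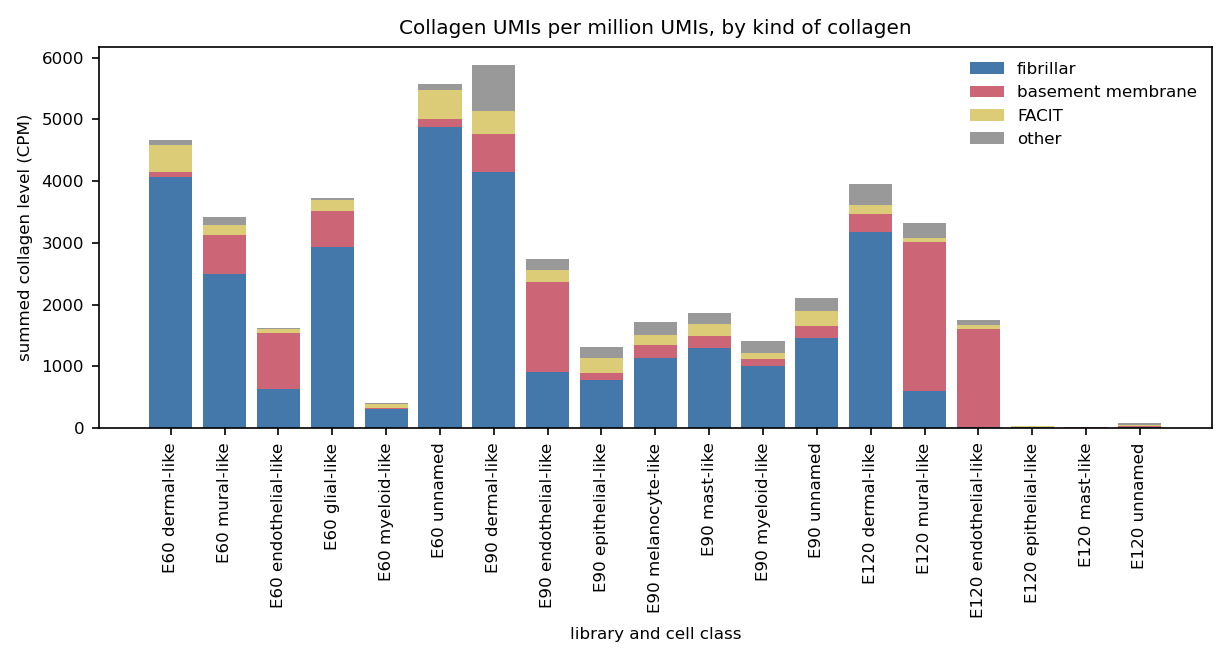
Summed collagen level in CPM (vertical axis, from 0) for each class with at least 50 cells in each library (horizontal axis), split into fibrillar, basement membrane, FACIT and other collagens by colour. Dermal-like bars are mostly fibrillar, endothelial-like bars are mostly basement membrane collagen, and the epithelial-like bar of E120 reaches 32.3 CPM.

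Between whole libraries, 17 collagens had at least 10 CPM in the higher of E60 and E90, and a difference of at least 2-fold in CPM + 1 was counted. At E90, 4 of the 17 were higher (COL14A1, COL6A3, COL17A1 and COL28A1) and 7 were lower, where 21.3% and 8.08% of all 6278 genes at that level were higher and lower. The largest increases were those of COL17A1 (log2 ratio 5.52), COL28A1 (4.69) and COL6A3 (1.52), and the largest decreases those of COL2A1 (-3.57), COL24A1 (-3.49) and COL25A1 (-1.62). The lower members were COL1A1, COL1A2, COL2A1, COL11A1, COL24A1, COL16A1 and COL25A1, and the median log2 ratio of the collagens was -0.05 against 0.13 over all genes. When cells under 1000 genes or over 10% mitochondrial UMIs were left out, 9 collagens in place of 4 were higher at E90. From E90 to E120, 14 of 14 collagens were lower and 0 were higher, against 24.2% and 9.99% of all 6357 genes, and COL6A3 (-5.24), COL1A1 (-4.73) and COL28A1 (-4.73) had the largest decreases. From E60 to E120, 13 of 14 were lower and 0 were higher, against 21.5% and 19.4% of all 5982 genes, with the largest decreases for COL24A1 (-6.36), COL1A1 (-6.15) and COL16A1 (-5.82). COL4A1 was the member in neither group, with 88.0 CPM at E60 and 46.0 CPM at E120. These 3 comparisons share libraries, and their class makeup differed as given above. Over all cells of E60, E90 and E120, the 11 epithelial marker genes summed to 5.03, 5286 and 1852 CPM and the 10 dermal marker genes to 16463, 3268 and 473 CPM. The part of that makeup in the collagen differences was not tested.

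**Figure D2:**
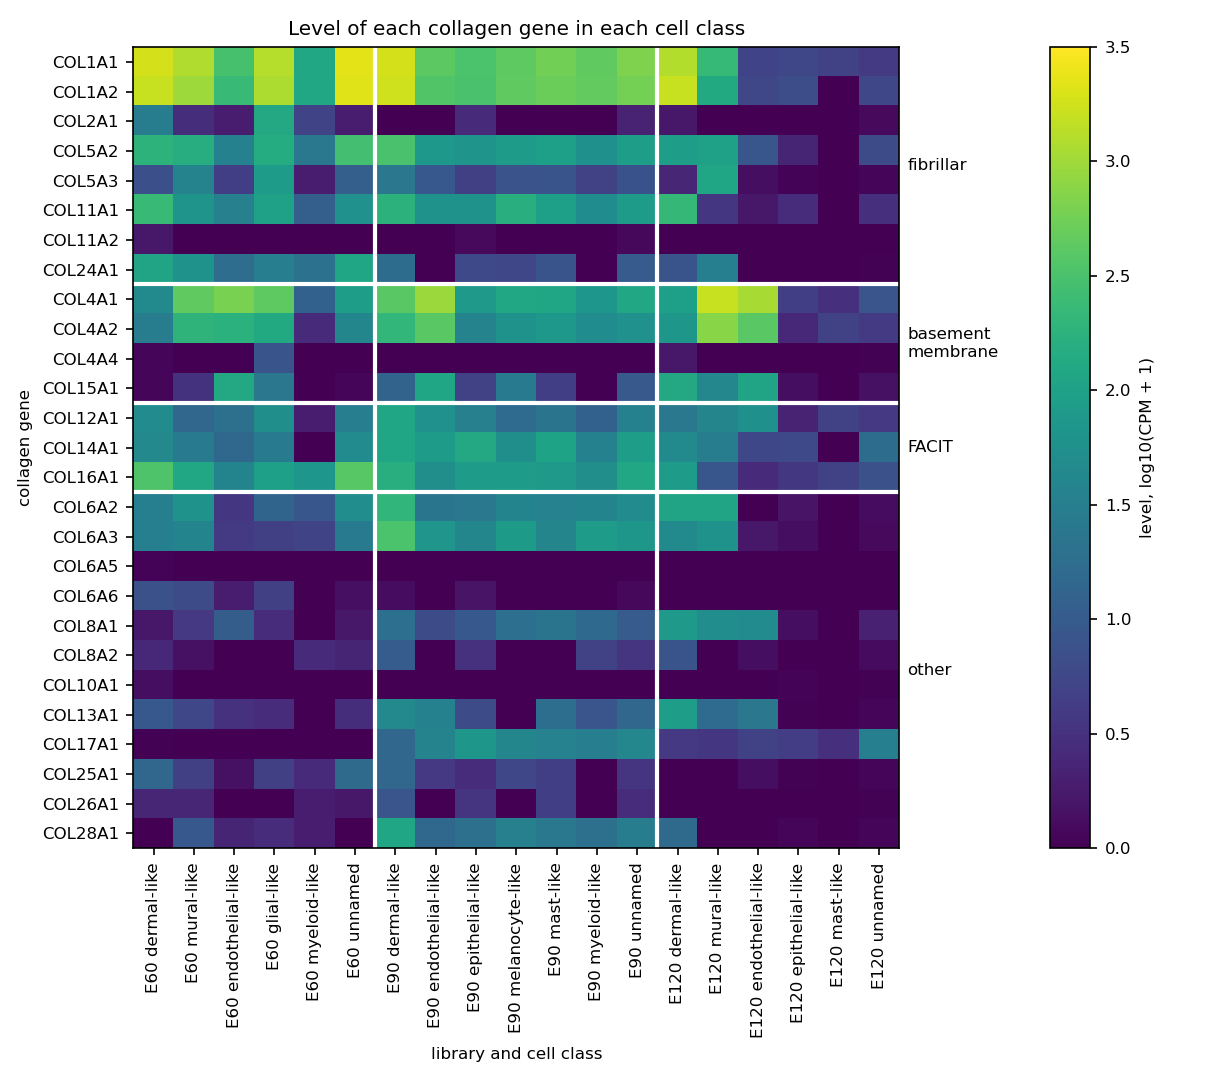
Level of each of the 27 collagen genes (rows, grouped by structure) in each cell class of each library (columns), as log10(CPM + 1) by colour. The type I chains are the brightest rows in dermal-like columns and in the mural-like column of E60. COL4A1 is the brightest row in endothelial-like columns and in the mural-like column of E120. All E90 columns show the type I chains at 314 CPM or above.

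Among fibrillar collagens, the type I chains were the most abundant members in dermal-like cells of every library. COL1A1, the α1 chain of type I, was at 1903 CPM (1891 to 1915) in dermal-like cells of E60, 1871 (1823 to 1919) at E90 and 1265 (1208 to 1325) at E120. COL1A2, the α2 chain, was at 1606, 1744 and 1597 CPM. The sums of the 3 libraries lay close together, although those of E60 and E90 span clusters that differed far more. Of the 1810 COL1A1 UMIs of E120 dermal-like cells, 1416 came from the 209 papilla-like cells, in which COL1A1 was at 1004 CPM, and the others came from 6 cells that clustered with dermal-like cells of E60 or E90. With each cell thinned to 2000 UMIs, a COL1A1 UMI was found in 78.6% of dermal-like cells of E60, 87.4% of E90 and 70.7% of E120. Before thinning these shares were 98.7%, 97.0% and 95.3%, at respective median depths of 8552, 5804.5 and 5503 UMIs.

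The minor fibrillar chains differed more across stages and classes. COL11A1, a chain of type XI that is best known from cartilage and is also built into thin fibrils, was at 229, 177 and 215 CPM in dermal-like cells of E60, E90 and E120. COL5A2, a chain of type V that is co-assembled with type I, was at 185, 315 and 89.5 CPM. COL24A1, a fibrillar chain found in bone and embryonic tissue, was at 111 CPM at E60, 16.3 CPM at E90 and 6.99 CPM at E120. After thinning, a COL11A1 UMI was found in 21.9%, 21.7% and 12.6% of dermal-like cells of E60, E90 and E120, and before it in 44.7%, 39.5% and 14.4%, so the E120 level came from a smaller share of the cells. In papilla-like cluster 27 these shares were 12.0% and 13.9%. By its level in the dermal-like sums, COL11A1 was the next chain after type I among the measured fibrillar collagens of E60 and E120. Over the 9 E60 clusters closest to the dermal class, taken up below, the median was 96.5 CPM for COL11A1 and 169 CPM for COL5A2. COL24A1 was largely an E60 transcript in the dermal-like class. COL5A3, the third type V chain, was highest outside the dermal-like class, at 85.2 CPM in the 59 glial-like cells of E60 and 116 CPM (84.8 to 156) in the 65 mural-like cells of E120. It was at 36.2 CPM in mural-like cells of E60 and at 6.22, 23.4 and 1.40 CPM in dermal-like cells of E60, E90 and E120. COL11A2 stayed under 1 CPM in every class.

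COL2A1, the chain of the cartilage fibril, was found in few places. It was at 29.8 CPM in E60 dermal-like cells, and 296 CPM in a single cluster of 467 of those cells (cluster 16, led by THBS4, CCL11 and CYTL1, with COL2A1 itself and TNMD among its leading genes). A second E60 cluster, cluster 33, had 125 CPM, whereas the other 6 dermal-like clusters of E60 had 0.802 to 5.79 CPM. The glial-like cells of E60, with CNMD among their leading genes, had 128 CPM, and with thinning to 2000 UMIs a COL2A1 UMI was found in 18.6% of those 59 cells (9.69% to 30.9%), against 49.2% before it. The same thinned share was 0 of 140 endothelial-like and 0 of 225 mural-like cells of E60, which allows up to 2.60% and 1.63% of thinned cells by the exact binomial interval, and before thinning 1.43% and 1.78% held one. Dermal-like cells of E90 had 0 COL2A1 UMIs, so the level at E60 was at least 31.0-fold higher with 3 UMIs over the class as the floor, and those of E120 had 1 UMI.

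Within E60, 9 clusters lay closest to the dermal class, namely 8 dermal-like clusters and the unnamed cluster 4, led by ANGPT1 and GDF10. COL1A1 ranged from 643 to 6338 CPM over them, a 9.86-fold range. The 3 highest were cluster 13, led by SEMA3C and SMOC2, at 6338 CPM, cluster 16 at 6240 CPM and the cycling cluster 33, led by NMU and FBLN7, at 5577 CPM. Cluster 4 had 2272 CPM and the remaining 5 clusters had 643 to 1081 CPM. COL1A2, COL5A2, COL12A1 and COL14A1 followed nearly the same order, with Spearman correlations with COL1A1 of 0.98, 0.93, 0.88 and 0.93 over the 9 clusters. COL11A1 was at 702 to 1185 CPM in the 3 high clusters and at 26.1 to 99.6 CPM in the other 6 (correlation 0.50). COL12A1, a FACIT of tension-bearing tissue, was at 161 to 280 CPM in those 3 and at 2.03 to 30.2 CPM elsewhere, a 138-fold range. COL6A6, a long type VI chain, was at 24.7 to 35.6 CPM in the 3 high clusters and at most 0.401 CPM in the others.

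Several collagens had the opposite order over these clusters. COL6A3 was at 4.72 CPM in cluster 13, 8.45 CPM in cluster 33 and 21.8 CPM in cluster 16, against 25.2 to 50.4 CPM in the other 6, and its Spearman correlation with COL1A1 was -0.95. COL13A1, a transmembrane collagen of cell contacts, was at 1.41 to 2.91 CPM in the 3 high clusters and was highest in cluster 2, led by DKK1 and CXCL14, at 19.98 CPM (correlation -0.85). COL25A1, a transmembrane collagen known from motor nerve targets, was at 0.728 to 2.11 CPM in the 3 high clusters and 10.1 to 20.6 CPM in the other 6 (correlation -0.55). COL16A1 varied least among members above 100 CPM, with 291 to 505 CPM over the 9 clusters. These correlations are descriptions over 9 clusters of 1 library, which share its depth and preparation, and dermal marker genes moved with them, at 34244 CPM in cluster 13 and 16222 CPM in the largest cluster, cluster 1. Their part in the collagen pattern was not tested.

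**Figure D3:**
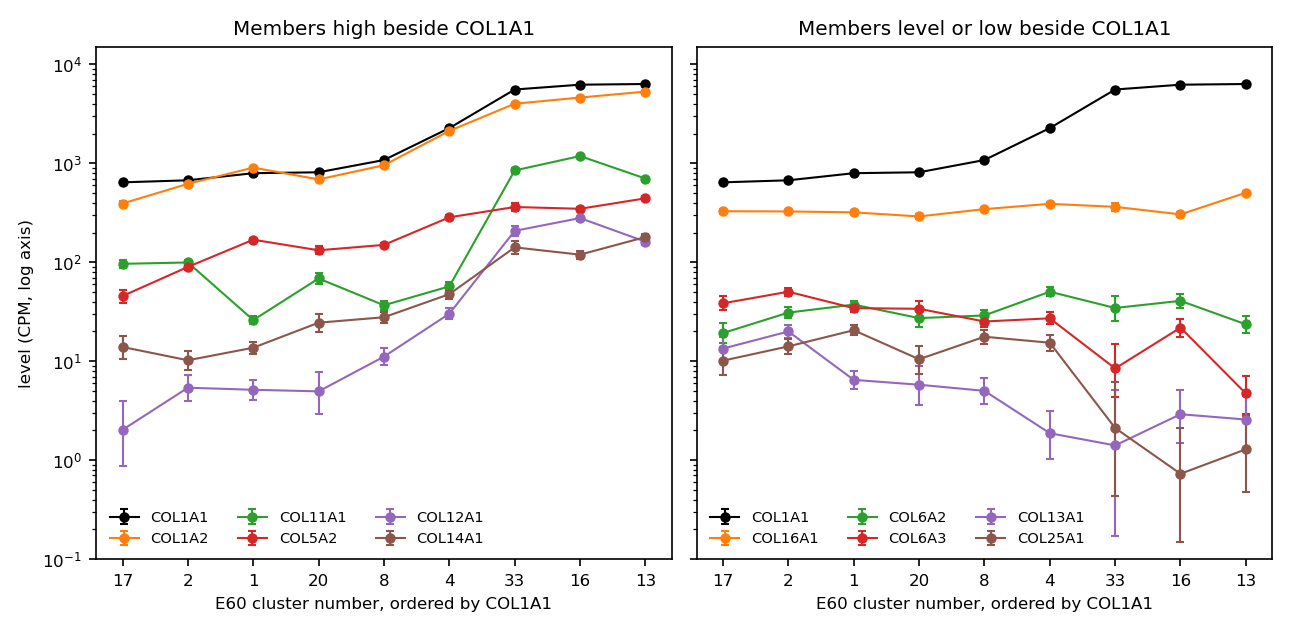
Levels of collagen genes in CPM (vertical log axis) in the 9 E60 clusters closest to the dermal class (horizontal axis, ordered by COL1A1), with bars for exact 95% Poisson intervals and lines that join the points of a gene to guide the eye. In clusters 33, 16 and 13 COL1A1 lies at 5577 to 6338 CPM beside high COL11A1, COL12A1 and COL14A1 (left), while COL6A3, COL13A1 and COL25A1 lie low there and COL16A1 stays at 291 to 505 CPM (right).

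The type IV chains COL4A1 and COL4A2 were highest in vessel cells at every stage. COL4A1, the α1 chain of type IV, was at 615, 948 and 1087 CPM in endothelial-like cells of E60, E90 and E120, where the intervals were 583 to 647, 851 to 1054 and 1049 to 1126 CPM. Mural-like cells, which include pericytes and vascular smooth muscle, had 440 CPM at E60 and 1610 CPM (1486 to 1742) at E120. COL4A2, the partner chain, was at 171, 402 and 396 CPM in endothelial-like cells and at 188 and 747 CPM in mural-like cells of E60 and E120. Glial-like cells of E60 also had a high type IV level, with 426 CPM of COL4A1 and 131 CPM of COL4A2. Dermal-like cells had 45.2, 396 and 94.4 CPM of COL4A1 and 28.1, 206 and 69.9 CPM of COL4A2 at E60, E90 and E120. The E90 value was the highest of the 3 for both chains, and both E90 dermal-like clusters shared it, with COL4A1 at 376 CPM in cluster 23 and 429 CPM in cluster 25. Endothelial marker genes summed to 16.6, 36.8 and 27.3 CPM in dermal-like cells of the 3 libraries, against 5462, 2498 and 5925 CPM in endothelial-like cells. The mural-like cells of E60 and E120 came mostly from different clusters, 24 and 40. Most endothelial-like cells of E60 were in cluster 31, those of E90 in cluster 35 and those of E120 in cluster 18.

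COL15A1, which links basement membranes to the fibrils beneath, was nearly restricted to endothelial-like cells at E60, with 127 CPM there, against 23.1 CPM in the glial-like and 0.119 CPM in the dermal-like class. It was at 113 CPM in endothelial-like cells of E90 and 111 CPM in those of E120, and the intervals of the 3 endothelial-like sums overlapped. At E120 it was also at 127 CPM (109 to 146) in dermal-like cells, which were nearly all papilla-like. With thinning, a COL15A1 UMI was found in 24.2% of those 215 cells, in 18.5% of endothelial-like cells and in 0.0227% of epithelial-like cells of the same library, and before thinning in 54.0%, 51.4% and 0.453%. In E90 it was at 27.0 CPM in the papilla-like cluster and 2.10 CPM in the other dermal-like cluster, beside 27.4 CPM in melanocyte-like cells. COL4A4, an α chain of specialised basement membranes such as that of the kidney, was highest in glial-like cells of E60 at 7.10 CPM.

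Comparing dermal-like with endothelial-like cells within E60, 15 collagens had at least 10 CPM in the higher class. COL4A1, COL4A2 and COL15A1 were higher in endothelial-like cells and the other 12 were lower, against 17.0% higher and 12.9% lower over all 5741 genes at that level. Toward dermal-like cells the largest differences were those of COL2A1, COL25A1 and COL6A2, with 0.850, 0.425 and 2.55 CPM in endothelial-like cells. The first pair of these rest on 2 and 1 UMIs there. The median log2 ratio of the 15 was -2.65 against 0.09 over all genes. COL1A1 was at 303 CPM in endothelial-like cells of E60, and 17.1% of those cells held a UMI of it after thinning, compared with 15.3% of myeloid-like cells, which should lack it. Unthinned, these shares were 42.1% and 28.8%, at median depths of 16131 and 8787.5 UMIs. The thinned endothelial share lay within the interval of the myeloid one (9.30% to 23.0%), whereas the level of 303 CPM (281 to 326) lay above the 122 CPM (103 to 144) of myeloid-like cells.

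The FACIT collagens differed in both direction and class. COL16A1, a FACIT of fine fibrils near basement membranes, was lower at each later stage, at 341, 154 and 81.8 CPM in dermal-like cells of E60, E90 and E120. COL12A1 was at 48.5, 115 and 24.5 CPM and COL14A1, which regulates fibril spacing, at 44.0, 111 and 44.7 CPM in the same class. The latter pair was thus highest at E90. Away from dermal-like cells, COL12A1 was at 55.9 CPM in endothelial-like cells of E120, above the 24.5 CPM of dermal-like cells in that library. COL14A1 was at 130 CPM in E90 epithelial-like cells against 111 CPM in E90 dermal-like cells, and is taken up with the epithelial clusters below. The 74 mast-like cells of E90 had 105 CPM of COL14A1 (70.7 to 150), an interval that held both levels.

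Type VI chains were far higher in dermal-like cells of E90 than of E60. COL6A3, the long chain of the type VI filament, was at 31.3 CPM at E60, 321 CPM at E90 and 46.1 CPM at E120. COL6A2 was at 31.5, 198 and 110 CPM. In E90 both dermal-like clusters held them, with COL6A3 at 270 CPM in cluster 23 and 400 CPM in the papilla-like cluster 25, and a COL6A3 UMI was found after thinning in 33.2% and 48.7% of their cells (70.1% and 77.2% before). The highest thinned share in an E60 dermal-like cluster was 8.46% (28.5% before), and in E90 the share was 15.9% of myeloid-like cells, which should lack the gene. At E120, mural-like cells had 111 CPM of COL6A2 and 62.0 CPM of COL6A3, next to the 110 and 46.1 CPM of dermal-like cells, and COL6A2 had 0 UMIs in 368 endothelial-like cells, where 3 UMIs would be 1.03 CPM. COL6A5 was at or under 0.0790 CPM in every class, and COL6A6 was at most 6.48 CPM in any class.

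COL8A1, COL13A1 and COL28A1 were highest in papilla-like cells of the later stages. COL8A1, a short-chain network collagen of vessel walls and the eye, was at 0.691, 17.9 and 74.1 CPM in dermal-like cells of E60, E90 and E120, and it was also at 47.2 CPM in endothelial-like and 51.7 CPM in mural-like cells of E120. COL13A1 was at 8.24, 43.2 and 86.7 CPM in dermal-like cells, and within E90 it was at 80.3 CPM in papilla-like cluster 25 against 19.5 CPM in cluster 23. COL28A1, a collagen related to type VI that is known from peripheral nerve, was at 247 CPM (220 to 276) in cluster 25, 26.3 CPM in cluster 23 and 15.4 CPM in dermal-like cells of E120. In E90 these 3 genes also gave UMIs in other classes. COL8A1 was at 15.0 to 21.0 CPM in mast-like, melanocyte-like and myeloid-like cells, and COL28A1 at 13.8 to 32.0 CPM over the 5 named non-dermal classes. COL13A1 was at 33.1 CPM in endothelial-like, 17.5 CPM in mast-like, 7.48 CPM in myeloid-like and 5.51 CPM in epithelial-like cells, with 0 UMIs in melanocyte-like cells. The COL8A1 and COL28A1 levels of cluster 23 lay within or under those, and its COL13A1 level lay above all but the endothelial-like one. The levels of cluster 25 lay above them for all 3 genes. COL28A1 is one of the 10 leading genes of cluster 25, but it was left out when the cells were clustered. At E60 it had 1 UMI in 5388 dermal-like cells, and its highest class there was mural-like at 8.26 CPM. COL25A1 was at 13.5 and 13.1 CPM in dermal-like cells of E60 and E90 and had 0 UMIs in those of E120, where 3 UMIs would be 2.10 CPM. COL8A2, COL10A1, COL26A1, COL4A4, COL6A5, COL6A6 and COL11A2 stayed under 10 CPM in every class, with COL8A2 highest at 9.29 CPM in E90 dermal-like cells.

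In E90, fibrillar transcripts were spread over all classes, which limits what a low level in that library can show. COL1A1 was at 323 CPM in epithelial-like, 411 CPM in endothelial-like, 573 CPM in mast-like, 434 CPM in melanocyte-like and 441 CPM in myeloid-like cells, against 1871 CPM in dermal-like cells. The ratio of COL1A1 to COL1A2 was 1.03, 1.16, 1.10, 0.969 and 0.959 in those 5 classes and 1.07 in dermal-like cells, and each of the 5 intervals included 1.07. In the unnamed cells it was 1.13 (1.10 to 1.17), an interval that did not. The 1.07 sums over dermal-like clusters 25 and 23, which had 0.807 and 1.24. The myeloid-like interval (0.739 to 1.245) held both of these and the epithelial-like one (0.978 to 1.08) held neither. Inclusion of 1.07 in a wide interval therefore shows little. After thinning, 46.0% of epithelial-like cells (median depth 4010 UMIs) and 66.2% of mast-like cells (3352 UMIs) held a COL1A1 UMI, compared with 87.4% of dermal-like cells, and before it 71.2%, 81.1% and 97.0% did. Mast-like and myeloid-like cells should lack COL1A1, so collagen levels in non-dermal classes of E90 are read against theirs as a background, and its source was not tested. At E120 the epithelial-like level was 4.63 CPM and the endothelial-like level 4.14 CPM, beside 1265 CPM in the dermal-like class. There 0.453% of epithelial-like cells held a COL1A1 UMI after thinning and 1.65% before. The unnamed cells of E90 held 33521 of its 67774 collagen UMIs.

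Across stages, dermal-like cells of different clusters were compared, namely clusters 1, 2, 8, 13, 16, 17, 20 and 33 of E60, clusters 23 and 25 of E90, and cluster 27 (led by FGF7, APOD and RSPO2) of E120. The E120 sum also held 1, 4 and 1 cells of clusters 13, 23 and 25, whose COL1A1 UMIs were given above. From E60 to E90, 20 collagens had at least 10 CPM in the higher library, and 12 were at least 2-fold higher and 3 lower at E90, against 34.5% and 6.40% of all 6582 genes. Their median log2 ratio was 1.54 against 0.45 for all genes. By structure, 3 of 3 basement membrane, 2 of 3 FACIT, 6 of 7 other and 1 of 7 fibrillar collagens were higher at E90. The 3 largest increases were those of COL28A1 (log2 ratio 6.80), COL17A1 (3.76) and COL15A1 (3.52), and the 3 decreases were those of COL2A1 (at least 31.0-fold), COL24A1 (log2 ratio -2.70) and COL16A1 (-1.14). COL17A1 at 13.1 CPM in dermal-like cells of E90 lay under the 29.9 to 38.8 CPM of myeloid-like, mast-like and melanocyte-like cells of that library and is read as background, and COL8A1 (log2 ratio 3.48) lay within the levels of those classes. COL15A1 at 11.85 CPM lay under the melanocyte-like 27.4 CPM but above the mast-like 3.49 CPM and myeloid-like 0 CPM. COL14A1 at 111 CPM lay near the mast-like 105 CPM, under the epithelial-like 130 CPM, and above the melanocyte-like 54.8 CPM and myeloid-like 33.7 CPM. The counts by structure include these members. In fold terms COL4A1 was 8.78-fold (8.19 to 9.41) and COL6A3 10.3-fold (9.47 to 11.1) higher at E90.

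From E90 to E120, 2 of 19 collagens were higher and 11 were lower in dermal-like cells, against 11.0% and 19.7% of all 6851 genes, with a median log2 ratio of -1.30 against -0.17. The 2 higher members were COL15A1 (log2 ratio 3.31) and COL8A1 (1.99), and COL13A1 at 2.00-fold fell just short in CPM + 1. Among members with UMIs in both libraries, the largest decreases were those of COL5A3 (-3.35, on 2 UMIs at E120), COL28A1 (-2.79) and COL6A3 (-2.77). COL25A1, with 0 UMIs at E120, was at least 6.26-fold lower with 3 UMIs as the floor. Papilla-like clusters alone were also compared, namely cluster 25 at E90 against cluster 27 and 1 cell of cluster 25 at E120. Of 17 collagens, 10 were lower and 1, COL15A1, was higher, against 21.9% and 10.4% of all 6937 genes. There COL24A1 changed direction, from -1.12 to 1.17 on the log2 scale, on levels of 1.64 and 4.96 CPM.

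From E60 to E120, 7 of 18 collagens were higher and 5 were lower, against 24.4% and 9.50% of all 6182 genes, with a median log2 ratio of 0.01 against 0.30. The largest increases were those of COL15A1 (log2 ratio 6.83), COL8A1 (5.47) and COL28A1 (4.01). Among members with UMIs in both libraries, the largest decreases were those of COL2A1 (-4.18, on 1 UMI at E120), COL24A1 (-3.81) and COL16A1 (-2.05). COL25A1 was at least 6.43-fold lower, with 0 UMIs at E120. COL4A1, COL4A2, COL6A2 and COL13A1 were the other higher members. Without the tendon- or cartilage-like cluster 16 of E60, 3 collagens in place of 5 were lower, and COL12A1, with a log2 ratio of -0.96 in the full comparison, was just short of the threshold. Dermal marker genes summed to 17050, 8008 and 2880 CPM in dermal-like cells of E60, E90 and E120, and 8 of the 10 in the list were detected at E120, with TWIST2 and DPT at 0. In the same cells epithelial markers summed to 0.968, 973 and 197 CPM, hair markers to 0.0395, 10.6 and 2470 CPM and papilla markers to 4549, 1907 and 6958 CPM. Their part in the collagen differences was not tested.

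**Figure D4:**
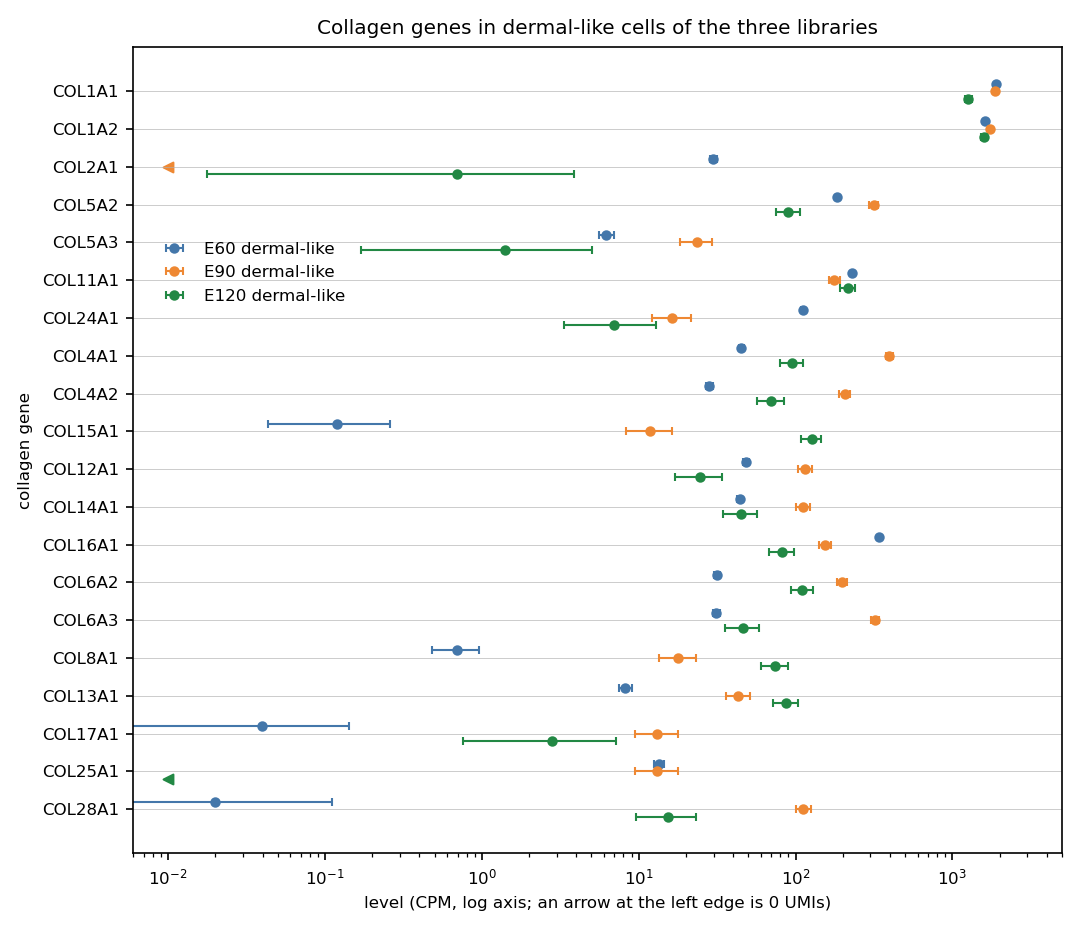
Levels in CPM (horizontal log axis) of the collagen genes that reach 10 CPM in dermal-like cells of at least 1 library (rows), with bars for exact 95% Poisson intervals and colours for E60, E90 and E120; arrows at the left edge mark 0 UMIs. The type I chains lie close together, COL4A1, COL4A2, COL6A2, COL6A3 and COL28A1 are highest at E90, and COL8A1, COL13A1 and COL15A1 are highest at E120.

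In epithelial-like cells, 13 collagens reached 10 CPM at E90 or E120, and 13 of 13 were lower and 0 higher at E120, against 29.7% and 9.25% of all 6303 genes. Their median log2 ratio was -4.49 against -0.42 for all genes. The largest decreases were those of COL1A1 (-5.85), COL1A2 (-5.57) and COL6A3 (-4.88), whose E90 levels in epithelial-like cells lay under those of myeloid-like cells. The classes compared were clusters 10, 12, 14, 21 and 37 of E90 and clusters 3, 6, 9, 11, 15, 19, 22, 26 and 29 of E120. The E120 class also held 12, 4 and 15 cells of clusters 10, 12 and 14. COL1A1 was at 0.149 to 12.8 CPM over the 9 listed E120 clusters, with a median of 1.76 CPM, against 4.63 CPM in the class sum. COL1A1 summed in the whole library was at 674 CPM at E90 and 24.5 CPM at E120, so less collagen RNA was present in the E120 library as a whole. Within the class, hair marker genes summed to 64.0 CPM at E90 but 27805 CPM at E120. Suprabasal ones summed to 7220 CPM and 1119 CPM. Cluster 0 of E90 and clusters 5, 7 and 28 of E120, unnamed but closest to the epithelial class by markers, were left out. Unnamed cells held 657 of 1441 COL17A1 UMIs at E90 (41.3 CPM) and 602 of 846 at E120 (31.5 CPM). The part of these marker differences, of the cells left out and of the E90 background in the decrease was not tested.

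COL17A1 and COL14A1 were unevenly spread over the epithelial-like clusters. In E90 the epithelial-like level of COL17A1 was 71.0 CPM and the dermal-like level 13.1 CPM. Over the E90 clusters it was highest in cluster 12, led by CXCL10, CCL20 and FGF20 with SEMA3E, at 112 CPM (100 to 125), followed by 58.8 CPM in cluster 10 and 57.3 CPM in the cycling cluster 14. Suprabasal-like cluster 21 had 40.3 CPM (30.7 to 51.9), an interval that held the levels of the myeloid-like, mast-like, melanocyte-like and endothelial-like clusters, at 30.8 to 40.9 CPM. After thinning, 15.6% of cluster 12 cells and 7.99% of cluster 21 cells held a COL17A1 UMI, and before thinning 33.8% and 16.0% did. In E60, which had 3 epithelial-like cells, COL17A1 had 0.0615 CPM in all.

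At E120 COL17A1 was at 3.28 CPM in epithelial-like cells. Unnamed cluster 28, led by POSTN, CCN2, FST and SEMA3E, had 176 CPM (148 to 207), and 30.5% of its 187 cells held a UMI after thinning and 48.7% before. Clusters 26, 5 and 7 had 35.5, 29.4 and 22.2 CPM, and cluster 9 had 11.3 CPM. Epithelial-like cluster 26 also had 45.4 CPM of COL4A1, 39.0 CPM of COL16A1, 33.2 CPM of COL5A2 and 30.2 CPM of COL12A1. The hair-like clusters 3, 6, 11 and 22 had 0.286, 1.76, 0.287 and 0.447 CPM. Cluster 28 was closest to the epithelial class by its markers, was kept unnamed because a dermal marker led it, and had 3720 UMIs per cell at the median. Its dermal markers summed to 1073 CPM and its COL1A1 was at 33.1 CPM, against 235 CPM in the mural-like cluster 40 and 1004 CPM in the papilla-like cluster 27.

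COL14A1 was at 201 CPM (185 to 218) in cluster 12 and 159 CPM in cluster 14 of E90, above the 85.7 CPM (73.1 to 99.9) of the dermal-like cluster 23, while papilla-like cluster 25 had 152 CPM. The dermal type I chain had the opposite order, with 243 CPM of COL1A1 in cluster 12 and 2184 CPM in cluster 23. Suprabasal-like cluster 21 had 49.0 CPM of COL14A1 and the myeloid-like cluster 34.6 CPM. At E120 it was highest in cluster 28, at 98.0 CPM (77.3 to 122), above papilla-like cluster 27 at 44.7 CPM, and it was at 32.6 CPM in cluster 26 and 23.0 CPM in cluster 15. Cluster 28 also had the highest COL16A1 level among E120 clusters other than the papilla-like one, at 57.3 CPM. In unnamed clusters 5 and 7 of E120, whose leading genes include DCN and whose dermal markers summed to 1744 and 1501 CPM, COL1A1 was at 0.503 and 0.580 CPM and COL17A1 was the most abundant collagen.

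**Figure D5:**
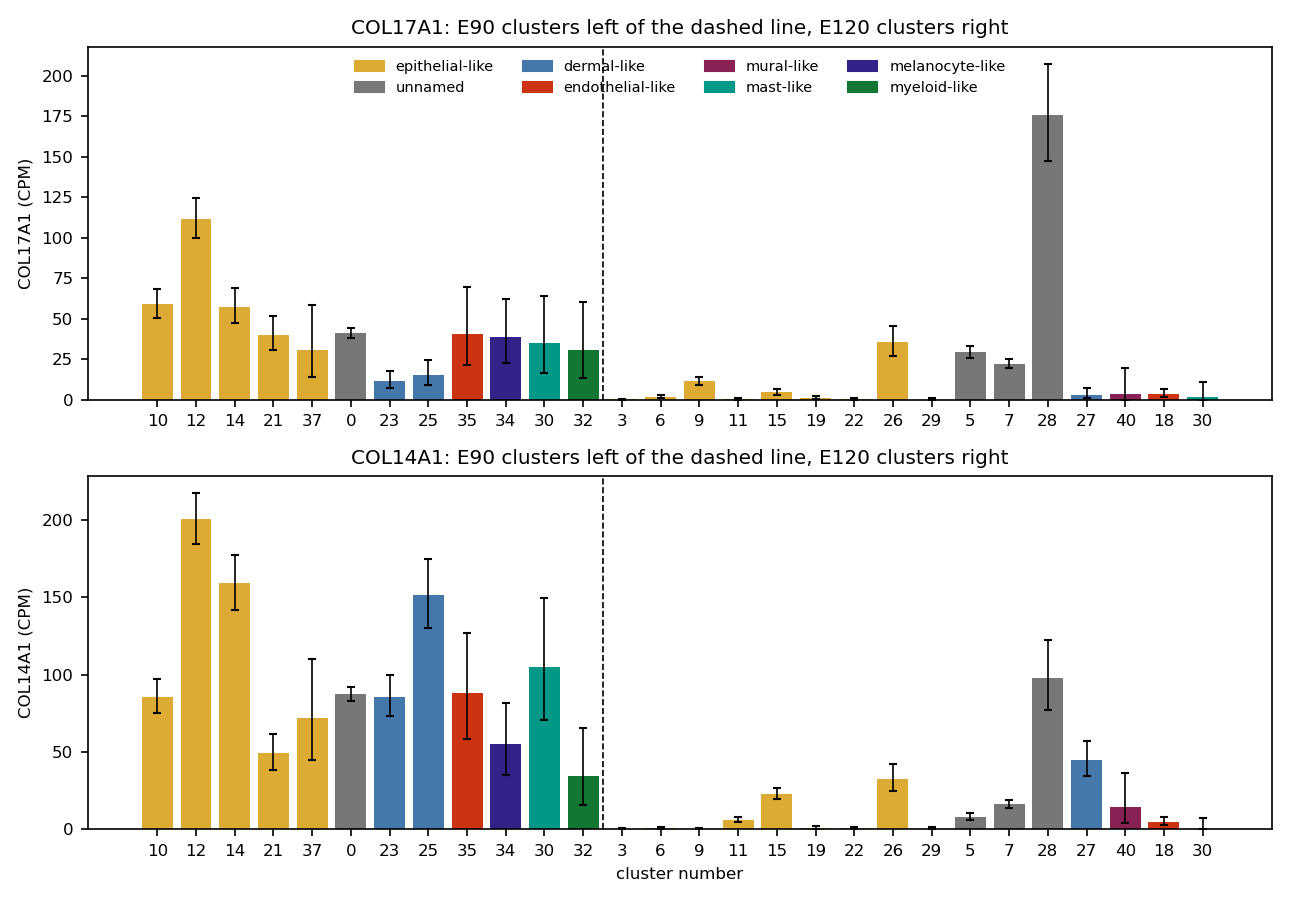
Level of COL17A1 (top) and COL14A1 (bottom) in CPM (vertical axis, from 0) in each cluster with at least 50 cells of E90 (left of the dashed line) and E120 (right), coloured by class, with bars for exact 95% Poisson intervals. Both genes are highest in cluster 12 among E90 clusters and in cluster 28 among E120 clusters.

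Within libraries, epithelial-like cells had less of most collagens than dermal-like cells. In E90, 16 of 19 collagens were at least 2-fold lower in epithelial-like cells and 1, COL17A1, was higher (log2 ratio 2.35), against 14.4% lower and 9.36% higher over all 6818 genes. The median log2 ratio was -2.35 against -0.23 over all genes, and the largest differences toward dermal-like cells were those of COL6A3 (-3.00), COL6A2 (-2.97) and COL13A1 (-2.76). COL14A1 and COL16A1 were in neither group. In E120, 15 of 15 were lower and 0 higher, against 31.6% and 12.4% of all 6285 genes, with a median log2 ratio of -5.29 against -0.33. The largest differences there were those of COL1A2 (-7.91), COL1A1 (-7.81) and COL15A1 (-6.58).

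Chains that assemble together were compared as ratios of UMIs. Type I is mostly a heterotrimer of COL1A1 and COL1A2, and in dermal-like cells the ratio of their UMIs was 1.19 (1.17 to 1.20) in E60, 1.07 (1.03 to 1.11) in E90 and 0.792 (0.745 to 0.843) in E120. It varied more among clusters of a library, from 0.878 in cluster 1 to 1.64 in cluster 17 at E60, and from 0.807 in the papilla-like cluster 25 to 1.24 in cluster 23 at E90. Both papilla-like clusters therefore had more COL1A2 than COL1A1 UMIs, with 0.759 (0.708 to 0.814) in cluster 27 of E120. Mural-like cells of E120 had a ratio of 1.65 (1.16 to 2.38). COL4A1 exceeded COL4A2 in endothelial-like cells by 3.59, 2.36 and 2.75 at E60, E90 and E120, and in dermal-like cells by 1.60, 1.92 and 1.35. COL6A3 to COL6A2 was 0.992, 1.62 and 0.418 in dermal-like cells of the 3 libraries. These are ratios of 3′ UMIs, which depend on how each transcript is captured and annotated, so differences between cells are more secure than the ratio itself.

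Genes that build and bind collagen were taken from a list of 31 processing genes, of which 30 were in the table. SERPINH1, the collagen chaperone HSP47, was at 1645, 1084 and 1699 CPM in dermal-like cells of E60, E90 and E120 and at 1588, 1111 and 1629 CPM in endothelial-like cells. In epithelial-like cells it was at 457 CPM at E90 and 53.2 CPM at E120. From E60 to E90, 8 of 19 processing genes at 10 CPM or above were higher in dermal-like cells and 0 were lower, with a median log2 ratio of 0.52 against 0.45 for all genes. Of all genes measured, 34.5% were higher and 6.40% lower. The 8 were the prolyl hydroxylase subunits P4HA1 and P4HB, P3H2, FKBP14, MIA3 and the crosslinking lysyl oxidases LOX, LOXL1 and LOXL2. LOX was at 23.7, 75.6 and 16.1 CPM in dermal-like cells of the 3 stages.

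From E90 to E120, 2 of 20 processing genes were higher and 7 lower in dermal-like cells, where 11.0% and 19.7% of all genes were. The 2 higher ones enhance removal of the procollagen C-terminal end. PCOLCE was at 395, 200 and 820 CPM and PCOLCE2 at 1.72, 2.88 and 440 CPM in dermal-like cells of E60, E90 and E120. In epithelial-like cells, 8 of 11 processing genes were lower at E120 and 0 were higher, against 29.7% and 9.25% of all genes. Of 9 collagen receptors, 7 were in the table. ITGA1, the α1 integrin of collagen-binding α1β1, was at 0.830, 8.01 and 65.7 CPM in dermal-like cells of the 3 stages, and DDR1, a receptor kinase of epithelia, was at 90.5 CPM at E90 and 58.4 CPM at E120 in epithelial-like cells against 29.1 and 40.5 CPM in dermal-like cells. From E60 to E90, DDR1 and ITGB1 were higher in dermal-like cells among 4 receptors measured, and from E90 to E120 ITGA1 was higher among 5, beside 34.5% and 11.0% of all genes higher in these comparisons.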

How the data were processed

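The deposited table holds natural log values of 20676 cells, where the design text names 19705. Per the submitters' processing notes Cell Ranger 3.0.2 was used; genome build, annotation and cell filters are not given in the sources used here. The authors scaled each cell to 10000 and took the natural log of 1 plus that value, as the values show: divided by the lowest nonzero value of its cell, 100% of values came out whole to within 0.01, and UMI counts were recovered with that lowest value taken as 1 UMI. The planned analysis had assumed counts. The collagen genes, lists and comparisons were chosen with earlier results of these data known.

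Cells were clustered on 2000 variable genes without collagens, with 30 principal components, 20 neighbours and Leiden resolution 1 (leidenalg 0.10.2, igraph 0.11.9, scikit-learn 1.9.0, numpy 2.4.6, scipy 1.17.1, Python 3.11.15). A cluster took the class whose markers lay closest to their highest level over clusters, with at least 3 markers found. It stayed unnamed if another class's markers led among its 10 leading genes. This scoring was set after the data were seen, since a first version drew E90 clusters toward the epithelial class. Counts were summed per library and class, and classes with at least 50 cells were used. No cell was removed in the main analysis, and as an alternative the top 6% by doublet score were left out. Ratios are log2 of CPM + 1, later over earlier. A difference was counted at 2-fold or more with at least 10 CPM in the higher sum, and zero sums were set to a floor of 3 UMIs for bounds. Members with at least 100 CPM in a class were named with their values in all stages, the rest by their highest level, and in each comparison the 3 largest increases and decreases were named. The scripts were tested on simulated data.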

Additional observations from a re-analysis of the deposited data

Results flagged for a closer look

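COL11A1 moved in opposite directions from E90 to E120 in the dermal-like and epithelial-like classes. Its log2 ratio was 0.28 in dermal-like cells, from 177 to 215 CPM, and -4.50 in epithelial-like cells, from 61.2 to 1.76 CPM. With 1 library per stage the difference between the classes was not tested. In the papilla-like clusters alone the dermal value was -0.25, so its direction depends on which dermal-like cells are compared. A COL11A1 UMI was found in 39.5% of dermal-like cells of E90 and 14.4% of those of E120 (21.7% and 12.6% with each cell thinned to 2000 UMIs). The E90 level in epithelial-like cells lay between those of myeloid-like cells, at 48.6 CPM, and mast-like cells, at 94.3 CPM, of the same library. Melanocyte-like cells of E90 had 158 CPM (123 to 199), an interval that held the 177 CPM of dermal-like cells. After thinning, 17.5% (10.7% to 26.2%) of those melanocyte-like cells held a COL11A1 UMI.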

How the results depend on the processing

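No paired analysis was possible because each stage has 1 library, and for the same reason no replicate could be left out. Of 195 alternative values of the counts, family shares and chain ratios, 179 stayed within 1.5 times (counts) or the counting interval, and 16 moved. With no minimum level, 8 collagens were lower from E60 to E120 in dermal-like cells, 22 were lower from E90 to E120 in epithelial-like cells and 2 were higher from E60 to E120 in whole libraries. Without tendon- or cartilage-like clusters 3 were lower from E60 to E120 in dermal-like cells. In papilla-like clusters alone 1 was higher from E90 to E120, and COL24A1 reversed to 1.17. With the cell filter 9 were higher from E60 to E90 in whole libraries, and the family share was 0.271% at E90 and 0.0174% at E120. It was 0.440% at E60 and 0.0160% at E120 without the highest doublet scores, and 0.466%, 0.220% and 0.0340% at E60, E90 and E120 with equal cell weights. COL1A1 to COL1A2 in E60 dermal-like cells was 1.166, 1.172 and 1.167 at Leiden resolution 0.5, with the cell filter and without the highest doublet scores. The causes of these moves were not tested. Scaling by the median ratio of genes with at least 10 CPM in both sums shifted levels by up to 0.17 (log2). It changed each collagen count by at most 1. Of 1316 alternative values of single genes, 1014 stayed within the counting interval, 301 moved and 1 reversed. Only values at least 2-fold in the main analysis could count as reversed. A change of sign in a smaller value, such as that of COL11A1 in papilla-like clusters, could count as moved. The alternatives with tendon- or cartilage-like, papilla-like and unnamed clusters were added after seeing the data, and the papilla-like one could not be run for comparisons with E60. Ratios planned with COL3A1, COL5A1 and COL6A1 were not run. E90 cells were the shallowest, and levels that rest on 1 to 3 UMIs have wide counting intervals.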
